A study of Rattus norvegicus with 15 samples.

Results

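The comparison described here sets RNA recovered with the RNA-binding protein hnRNP A2 against the total RNA of the same kind of culture, in oligodendrocytes that received no amyloid-β. Its members are 6 of the 15 libraries of the series. They are the control immunoprecipitations RIPC2, RIPC3 and RIPC4 and the control inputs InputC2, InputC3 and InputC4, chosen by title and paired by the number in it. Per the labels' protocols, precursor cells were shaken off mixed glial cultures of newborn Sprague-Dawley rat forebrain cortex and matured for 3 days in a chemically defined medium. The labels call these 6 libraries "Control" and the cells primary cultured oligodendrocytes, and they name no vehicle. The other groups used below are the immunoprecipitations and inputs of cultures given oligomeric amyloid-β (RIPAb and InputAb, 3 libraries each) and 3 IgG immunoprecipitations labelled as a pool of both treatments. The names under which the IgG counts were deposited carry Ab, and the label was followed. Values of the control immunoprecipitation over IgG may therefore also hold a difference of treatment.

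hnRNP A2 is an abundant RNA-binding protein of the nucleus and cytoplasm. In oligodendrocytes it is known for binding a short response element in messenger RNAs such as that of myelin basic protein, for joining the granules that carry these RNAs along the processes, and for holding back their translation on the way. An RNA immunoprecipitation isolates the protein with an antibody and reads the RNA that comes with it. Input RNA shows what the cells contain, and an IgG immunoprecipitation shows what the procedure recovers without the specific antibody.

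The deposited tables list genes by rat Ensembl identifier and do not pair identifiers with names. The reference table used here held no Ensembl identifier, so 0 of 30560 could be matched. Genes are therefore described by their behaviour in the libraries. Only the 2 leading gains and 2 leading losses are given by identifier, and their roles are not known here. For the same reason the markers of oligodendrocytes and of the other glia in such cultures were not analysed here, and neither were the myelin transcripts.

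The control inputs had 14773400 to 24170384 gene-assigned reads and the control immunoprecipitations 29216021 to 31313742. The precipitated RNA was spread over many more genes than the input RNA. The 10 most abundant genes of each library took 41.6%, 25.1% and 38.7% of gene counts in inputs 2, 3 and 4. They took 6.05%, 7.93% and 8.01% in the immunoprecipitations of the same numbers, so the groups did not overlap. The smallest set of genes that held 50% of the counts numbered 73, 326 and 81 in the inputs and 902, 753 and 772 in the immunoprecipitations. Thinned to 14000000 counts each, the inputs would still show 16603 ± 379 genes (SD, n = 3) and the immunoprecipitations 17640 ± 270 (SD, n = 3). Uniquely aligned reads outside annotated features made up 10.1% ± 1.13 (SD, n = 3) of the input and, in the immunoprecipitation, 22.7% ± 2.55 (SD, n = 3). Of all aligned records, 56.6% ± 10.2 (SD, n = 3) aligned to several places in input and 18.5% ± 3.67 (SD, n = 3) did so in the immunoprecipitation. All of these measures moved 1 way in 3 of 3 pairs. Each exact permutation test, 2-sided and over 6 measures, gave p = 0.1 unpaired (adjusted p = 0.1) and p = 0.25 paired (adjusted p = 0.25), the smallest values that 3 libraries against 3 allow.

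**Figure D1:**
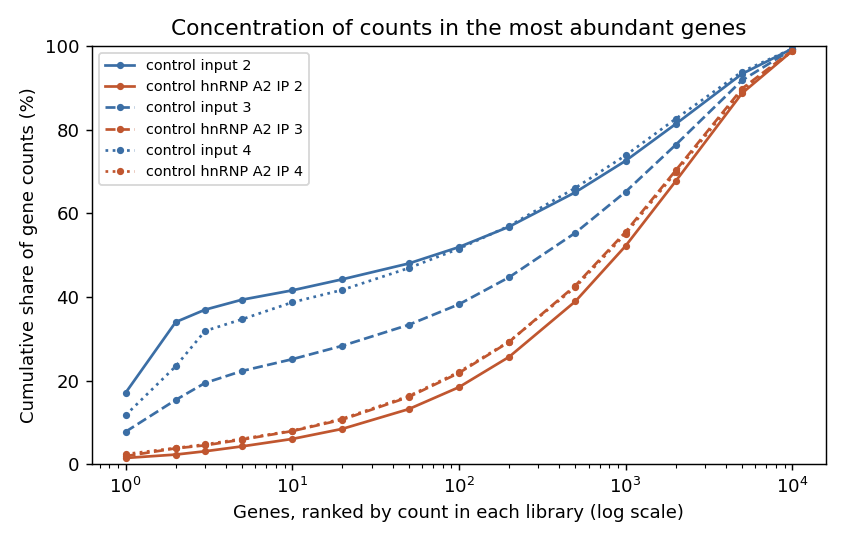
Cumulative share of gene counts (vertical axis, percent) against the number of genes, ranked by count within each library (horizontal axis, log scale), for the 3 control inputs (blue) and the 3 control immunoprecipitations (orange). The input curves start far above the immunoprecipitation curves: the 10 leading genes hold 25.1% to 41.6% of input counts and 6.05% to 8.01% of precipitated counts.

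A small number of very abundant input RNAs accounted for most of that concentration. The most abundant input gene took 16.9%, 7.76% and 11.7% of counts in inputs 2, 3 and 4, and 0.815%, 0.675% and 0.778% in the paired immunoprecipitations. The next gene had nearly the same values, 17.0%, 7.62% and 11.7% in input and 0.558%, 0.704% and 0.853% after immunoprecipitation. Whether these 2 share reads through overlap or near-identical sequence was not tested. The third took 2.96%, 4.05% and 8.45% of input counts and 0.225%, 0.107% and 0.146% of precipitated counts. Their log2 fold changes were -4.58, -4.68 and -5.58 (SE 0.36, 0.36 and 0.37). The edgeR adjusted p-values were 4.4e-35, 8.62e-36 and 2.09e-48 in the paired fit and 0.000502, 0.000533 and 0.000446 without the block.

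Of the 10 genes with the highest mean share in input, 8 were called lower in the immunoprecipitation and 0 higher. Over all genes tested, 25.9% were called lower and 27.2% higher. The 10 were picked for high values in these same inputs, which favours a loss, so their calls are a description. The exceptions were the fourth and the fifth input genes, which were the leading pair among precipitated genes. The fourth took 1.62%, 1.08% and 1.18% of counts in inputs 2, 3 and 4 and 1.50%, 1.87% and 2.42% in the immunoprecipitations, ranges that overlap. Its log2 fold change was -0.06 (SE 0.30, edgeR adjusted p = 0.881, and 0.895 without the block). For the fifth, the fitted difference was -0.41 on the log2 scale (SE 0.29, edgeR adjusted p = 0.231, and 0.611 without the block). Its share followed the replicate number in both kinds of library, at 0.498%, 1.78% and 1.23% in input and 0.613%, 1.94% and 1.46% after immunoprecipitation. Of the 10 genes with the highest mean share in the immunoprecipitation, 3 were called higher and 2 lower. The leading 10 genes of the groups had 4 members in common, and the leading 100 had 56.

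Gene by gene, the immunoprecipitation differed from input over a large part of the measured RNAs. A gene was called when its adjusted p in edgeR's quasi-likelihood test, with the replicate number as a block, was under 0.05. Of 14598 genes tested, 7764 were called (53.2%), 3977 higher (27.2%) and 3787 lower (25.9%) in the immunoprecipitation. On the log2 scale the typical call was a difference of 1.15 upward (median) or -1.12 downward, beside 0.03 over all genes tested. At least a 2-fold difference was reached by 2448 of the higher genes (16.8% of those tested) and 2233 of the lower genes (15.3%). With the pairing left out, 2961 genes were higher and 2904 lower, and 5864 of the 7764 calls were kept.

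The balance of gains and losses depends on how the libraries are scaled. TMM scaling, which sets the bulk of genes to no change, was used throughout. With library sizes alone, so that values are plain shares of each library, 6650 genes were higher and 1323 lower, 83.4% of calls higher against 51.2%, and the median over all genes moved to 0.66. The larger share of most genes in the immunoprecipitation goes with the smaller share of the abundant input RNAs above. A larger share of the precipitated RNA and a larger amount of RNA recovered cannot be told apart in these libraries. In counts per library, genes called higher made up 10.6%, 14.7% and 8.61% of inputs 2, 3 and 4 and 40.7%, 37.9% and 40.3% of the paired immunoprecipitations. Genes called lower went from 66.4%, 54.3% and 67.9% to 21.7%, 22.7% and 21.4%, and genes not called from 23.1%, 30.9% and 23.4% to 37.5%, 39.4% and 38.3%. The first 2 of these sets were chosen on these libraries, so their shares are a description.

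**Figure D2:**
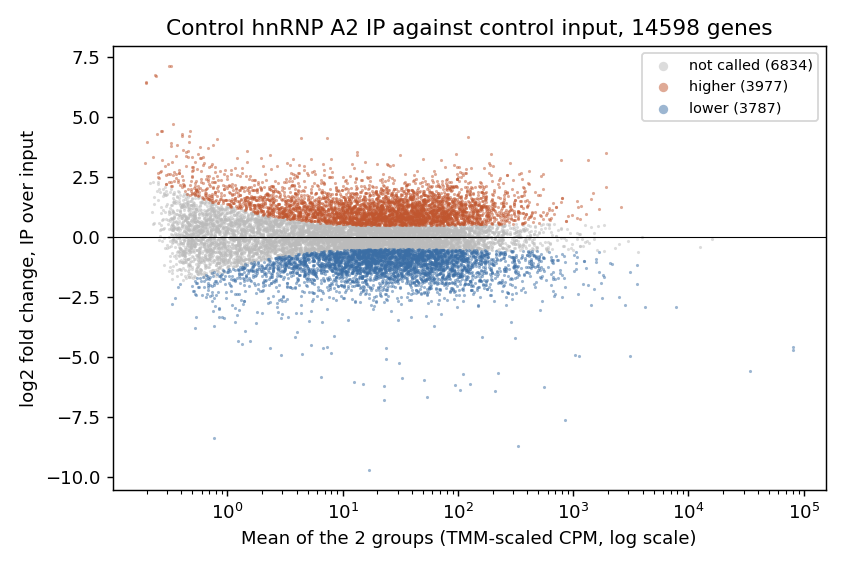
Log2 fold change of the control immunoprecipitation over control input (vertical axis) against the mean of both groups in TMM-scaled counts-per-million values (CPM; horizontal axis, log scale), 1 point per gene tested. Called genes lie above (3977, orange) and below (3787, blue) a band of 6834 genes not called, and the lower side reaches past -9 while the upper side, above a mean of 10 CPM, ends near 4.

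With TMM scaling, losses reached further than gains. At least 4-fold differences were called for 447 genes higher and 375 lower, at least 8-fold for 76 and 75, at least 16-fold for 18 and 42, and at least 32-fold for 6 and 22. The even count at 8-fold depends on the scaling: with library sizes alone it was 233 genes higher and 47 lower. The 76 genes gaining at least 8-fold had a median of 0.105 CPM in input and 1.15 CPM after immunoprecipitation. Of these, 54 were past the expression filter's cutoff of 0.375 CPM in all 3 immunoprecipitations but not in all 3 inputs, so the filter helps to set how scarce they are. The number gaining at least 8-fold was 141 without pair 2, 156 without pair 3 and 40 where at least 1 CPM was required in 3 libraries. Of identifiers with 0 counts in all 3 inputs, 7 had at least 10 counts in each immunoprecipitation, and none of them exceeded a mean of 0.818 CPM there. In the other direction there was 1.

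Among genes with at least 10 CPM in the higher group, ENSRNOG00000005234 had the largest gain. It stood at 13.3, 15.4 and 9.22 CPM in inputs 2, 3 and 4 and at 194, 238 and 259 CPM in the immunoprecipitations of those numbers. The lowest immunoprecipitation lay far above the highest input. The log2 fold change was 4.19 (SE 0.27), 18.2-fold, with an edgeR adjusted p of 7e-50 in the paired fit and 0.000406 without the block. By pair, the difference in log2 CPM was 3.85, 3.94 and 4.80.

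ENSRNOG00000065190 came next, with 0.645, 1.56 and 0.0941 CPM in inputs 2, 3 and 4 and 11.0, 16.4 and 13.9 CPM in the immunoprecipitations. The input values rest on 12, 32 and 1 counts, so the pair with input 4 is the least certain. Its log2 fold change was 4.14 (SE 0.32), with an edgeR adjusted p of 8.67e-35 in the paired fit and 0.000999 without the block. From pooled counts it was 15.2-fold higher (exact 95% interval 11.3 to 20.9, counting error only). The fitted fold was 17.7, and it was 28.9 without pair 3.

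The largest loss was that of ENSRNOG00000067889. This gene had 23.9, 19.2 and 58.4 CPM in inputs 2, 3 and 4, from 445, 393 and 621 counts, and 0, 3 and 1 counts in the paired immunoprecipitations. From pooled counts the input level was 839 times that of the immunoprecipitation, with an exact 95% interval of 327 to 3084 for counting error only. Its fitted log2 fold change was -9.70 (SE 0.41), with an edgeR adjusted p of 9.78e-117 in the paired fit and 0.000406 without the block. Without the block the log2 fold change was -9.73 (SE 0.74). With 4 counts over the immunoprecipitations, the SE of the paired fit understates the counting error. The fitted fold was 832, and it was 2360 without pair 3 and 487 without pair 4.

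ENSRNOG00000060430 fell from a much higher level, with 498, 339 and 1150 CPM in inputs 2, 3 and 4 and 0.933, 1.86 and 1.52 CPM in the immunoprecipitations. Its counts there were 36, 69 and 59. Pooled counts put input at 399 times the immunoprecipitation (exact 95% interval 342 to 468, counting error only). The fitted log2 fold change was -8.70 (SE 0.36), with an edgeR adjusted p of 1.41e-121 in the paired fit and 0.000406 without the block. The pairs differed by more than counting error: the log2 difference was -8.95, -7.45 and -9.49 in pairs 2, 3 and 4. The fitted fold of 416 became 645 without pair 3 and 302 without pair 4. Both leading losses had their highest input value in library 4.

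**Figure D3:**
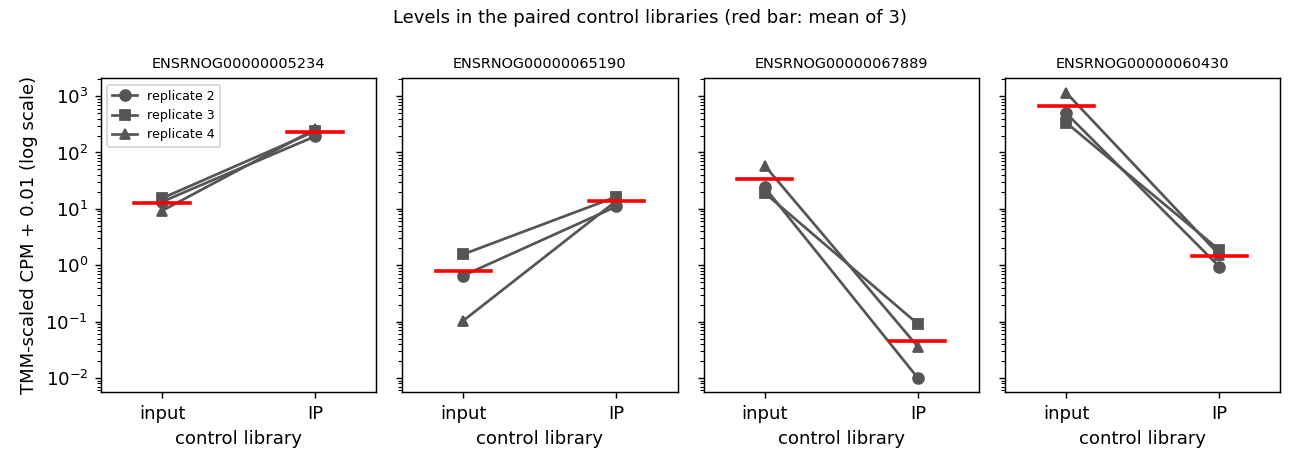
Level of the 2 leading gains and 2 leading losses in the control libraries (vertical axis, TMM-scaled CPM plus 0.01, log scale); each line joins the input and the immunoprecipitation of 1 replicate number, and the red bar is the mean of 3. Inputs and immunoprecipitations do not overlap for any of the 4, which the rule for naming them required. Of all 14598 genes tested, 4013 did not overlap with the immunoprecipitation higher and 3733 with it lower. The input values of the losses spread more widely, from 339 to 1150 CPM for ENSRNOG00000060430.

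The 42 genes that were lower by at least 16-fold include the 3 most abundant input genes, and together they held 37.4%, 20.5% and 34.2% of counts in inputs 2, 3 and 4 but 1.68%, 1.50% and 1.85% in the immunoprecipitations. Input 4 had the highest CPM of the 3 inputs for 39 of the 42 (92.9%), against 34.3% of all genes tested. This was not limited to them: the share was 81.1% at 4-fold or more, 65.2% at 2-fold or more and 58.9% of all genes called lower, and choosing genes by their loss favours a high input. With these 42 genes set aside, the leading 10 of the remaining genes took 9.05%, 8.45% and 11.0% of input counts and 5.30%, 7.27% and 7.15% of precipitated counts. The number of genes holding 50% of the counts was then 700, 701 and 531 in the inputs and 933, 780 and 805 in the immunoprecipitations. Most, but not all, of the difference in concentration lay in this set, which was chosen on these libraries. The set numbered 37 to 51 genes with 1 pair left out and 30 with library sizes alone.

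Among genes well above the expression filter, groups of RNAs more abundant in the cells had lower median fold changes, with a wide spread within each group. To avoid using control input on both sides, genes were grouped by their mean in the 3 amyloid-β inputs, which the fit did not use although they share replicate numbers with it. The median log2 fold change of the control immunoprecipitation was 0.05 among 3346 genes at 10 to 30 CPM there, -0.10 among 3542 genes at 30 to 100 CPM and -0.37 among 1503 genes at 100 to 300 CPM. Among 433 genes at 300 to 1000 CPM it was -0.69, and among the 81 genes at 1000 CPM and over it was -1.30.

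The same order of the highest levels held within each pair, with medians of -1.34, -1.02 and -1.43 in pairs 2, 3 and 4 for the 81 most abundant genes. Of these, 58 were called lower (71.6%) and 2 higher (2.47%). At 10 to 30 CPM the calls were nearly even, with 32.8% of genes higher and 27.9% lower. Under 1 CPM the median over 1661 genes was 0.56, but the filter bears on it. Of those genes, 915 were past its cutoff in all 3 immunoprecipitations but not in all 3 inputs, and 83 the other way round. The median there was 1.04 where at least 1 CPM was required in 3 libraries and 0.60 with no filter. With library sizes alone every median shifted upward, to 1.17 in the lowest group and -0.66 in the highest, and that of the 300 to 1000 CPM group came to -0.06.

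**Figure D4:**
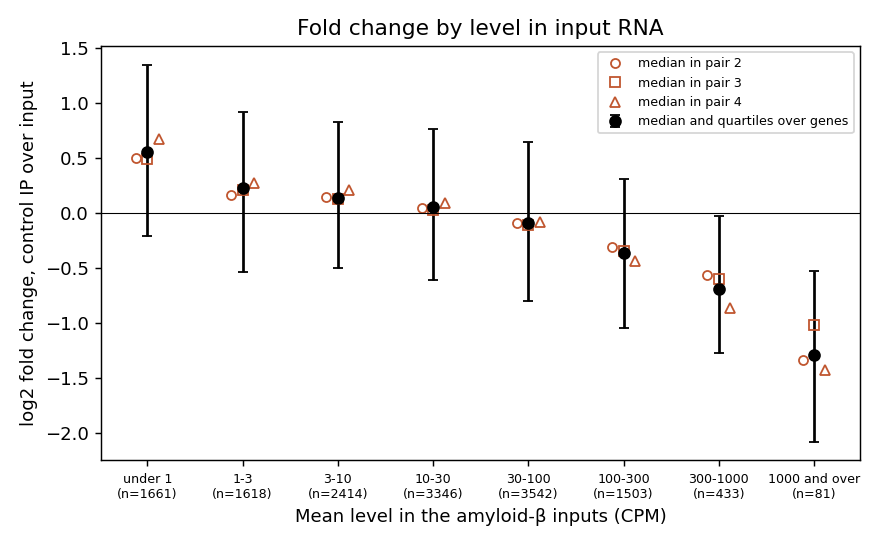
Log2 fold change of the control immunoprecipitation over control input (vertical axis) for genes grouped by mean level in the amyloid-β inputs (horizontal axis, CPM). Black points are medians with quartiles over genes, which show the spread of genes and not replicate error, and open symbols are the medians of each pair; the median runs from 0.05 at 10 to 30 CPM to -1.30 in the highest group, and the groups at the left edge are shaped by the expression filter.

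The 3 pairs gave like patterns of different size. The difference in log2 CPM was past 2-fold for 35.4% of genes in pair 2, 28.9% in pair 3 and 46.7% in pair 4. Across the genes tested, which are not independent replicates, these differences correlated at r = 0.74 between pairs 2 and 3, 0.78 between 2 and 4 and 0.79 between 3 and 4. The sign was the same in all 3 pairs for 10480 genes (71.8%). Among the genes called higher, 25, 29 and 11 had a negative difference in pairs 2, 3 and 4, and among those called lower 31, 33 and 6 had a positive one. The inputs, which were shallower and less even in depth, varied more between replicates than the immunoprecipitations. The part of depth in this was not tested. The median SD of log2 CPM over 3 libraries was 0.37 in input and 0.26 in the immunoprecipitation, and it was larger in input for 9760 genes (66.9%). Immunoprecipitations 3 and 4 were the closest libraries, with a median absolute difference of 0.23 in log2 CPM, against 0.38 between 2 and 3.

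The amyloid-β libraries repeat the same measurement in cultures that the control fit did not use. In their own paired fit, 2838 of 14618 genes were higher (19.4%) and 2905 lower (19.9%). Of the 3947 control-higher genes tested there, 2638 were called higher and 0 lower, which is 66.8%. Of the 3769 control-lower genes, 2618 were called lower and 0 higher, which is 69.5%. The median log2 fold changes of these sets in the amyloid-β libraries were 1.08 and -1.13, close to those in control. Pair 3 of the amyloid-β libraries showed the pattern least often: 83.9% of control-higher genes were positive in it, against 98.7% and 99.1% in pairs 2 and 4. For control-lower genes 86.5% were negative in pair 3, against 98.7% and 99.1%. The cultures share replicate numbers, and nothing in the labels says that they came from separate animals. Without replicate 4, the amyloid-β counts were 1071 higher and 1307 lower.

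The test of the difference itself, the control gain over input less the amyloid-β gain, called 0 of 15303 genes with edgeR (0%). Before adjustment, 150 of the 15303 genes had p under 0.05. That is fewer than a share of 0.05, which would be found with no difference in any gene, so the test was conservative here. No gene was called with DESeq2 (186 genes before adjustment) or with voom (152). This does not show that the gains were equal. The 95% confidence interval of the difference lay within a 2-fold change for 35.6% of genes.

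The strongest losses were numerically larger in control. Over the 42 genes lower by at least 16-fold, the median log2 fold change was -5.15 in control and -4.39 in amyloid-β, where all 41 tested were called lower. Since they were picked for their control values, a smaller median elsewhere would also follow from the choice. For ENSRNOG00000067889 the log2 difference was -0.90 (SE 1.16, edgeR adjusted p = 1), and for ENSRNOG00000005234 it was 0.13 (SE 0.35, edgeR adjusted p = 1). Both adjusted p-values were also 1 without the block.

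Scaled by TMM, the 2 leading gains over input had levels near those of the IgG immunoprecipitation. These are relative levels, and amounts of RNA recovered cannot be compared with them. The IgG libraries were shallow, with 81463, 4096829 and 1895870 gene counts in replicates 2, 3 and 4. With the number as a block, 1511 of 13976 genes were higher in the control immunoprecipitation than in IgG (10.8%) and 1242 lower (8.89%). As IgG is labelled a pool, the number need not mark the same culture. Whether IgG varies with the same-numbered immunoprecipitation was not tested. Without the block the total was 223 in place of 2753, without replicate 3 it was 1047 and without replicate 4 it was 253. ENSRNOG00000005234 had 12, 1393 and 542 counts in IgG 2, 3 and 4, and 7463, 8835 and 10033 in the deeper immunoprecipitations. Its log2 fold change over IgG was 0.03 (SE 0.28, edgeR adjusted p = 0.951, and 0.961 without the block). That of ENSRNOG00000065190, with 0, 90 and 21 counts in IgG, was 0.12 (SE 0.34, edgeR adjusted p = 0.838, and 0.967 without the block). With 1 number left out, the value over IgG ran from -0.16 to 0.32 for the first gene. For the second it ran from -0.06 (SE 0.59) to 0.64 (SE 0.65). Their values over input, 4.19 and 4.14, come from the same immunoprecipitations.

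Further down, values over IgG spread to both sides of 0. Among the 20 leading gains by the same rule, the log2 fold change over input ran from 3.04 to 4.19, and that over IgG from -1.29 to 1.22 with a median of 0.16. Of the 20, 2 were called higher than IgG and 1 lower in the paired fit, and 0 either way without the block. All genes called higher over input had a wider, small shift over IgG: the median was 0.30 over the 3948 tested, against 0.05 over all genes. Both comparisons use the same immunoprecipitations, so these values are a description. The fourth of these genes was the seventh most abundant in the immunoprecipitation, at 313 ± 130 CPM (SD, n = 3) in input and 3528 ± 1376 CPM (SD, n = 3) after it. Its log2 fold change was 3.49 over input and 0.51 over IgG. The eleventh had the highest value over IgG, 1.22, with 258 ± 49.4 CPM (SD, n = 3) in input and 2453 ± 600 CPM (SD, n = 3) in the immunoprecipitation.

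Most leading losses were also lower than in IgG in the paired fit, and fewer were without the block. Of the 20 leading losses, 16 were tested against IgG, and their log2 fold changes there ran from -3.54 to -1.09 with a median of -2.59. Of these, 15 were called lower in the paired fit, 7 without the block and 7 without replicate 4. All were chosen for low values in these same immunoprecipitations, and a gene scarce there passes the filter mainly through IgG. A negative value over IgG is thus favoured by the choice, and these values are a description. ENSRNOG00000060430 had 3, 26 and 96 counts in the IgG libraries and was lower than in IgG, at -3.54 on the log2 scale (SE 0.43, edgeR adjusted p = 3.31e-14). Without the block it was -4.12 (SE 0.66, edgeR adjusted p = 0.0219), and without replicates 3 and 4 in turn -4.87 and -1.93. The 42 strongest losses made up 3.73%, 1.39% and 2.99% of counts in IgG 2, 3 and 4. That lies below each control input, and IgG 3 lies below each control immunoprecipitation.

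**Figure D5:**
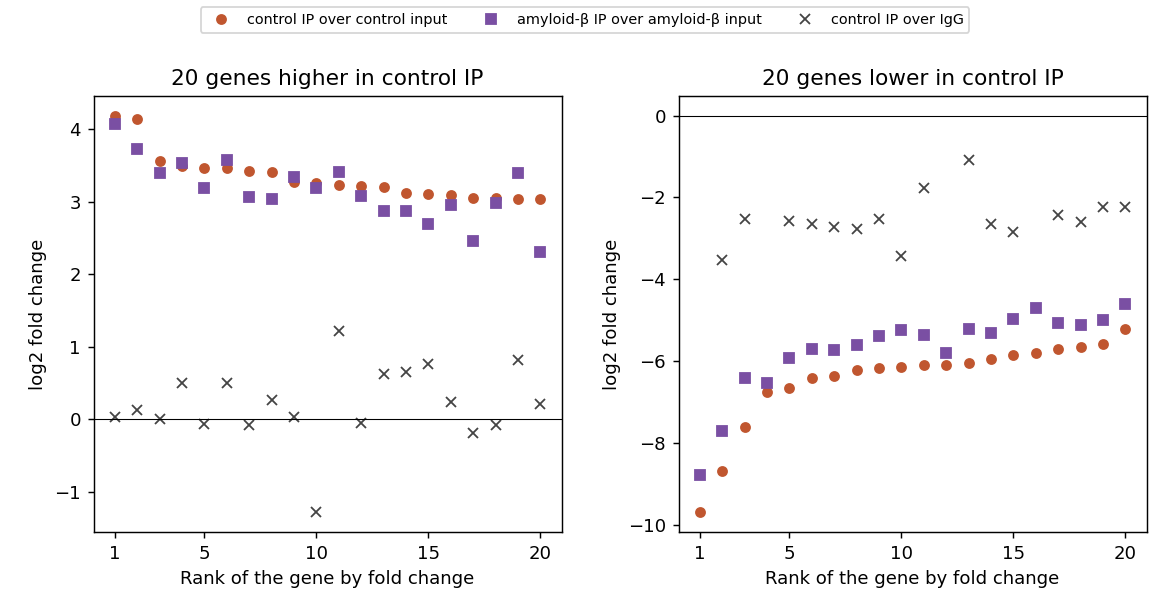
Log2 fold changes (vertical axis) of the 20 leading gains (left) and 20 leading losses (right) of the control immunoprecipitation, by rank (horizontal axis), over control input (orange), of amyloid-β immunoprecipitation over its input (purple) and of the control immunoprecipitation over IgG (crosses; 4 losses were not tested there). The gains lie between 3.04 and 4.19 over input and between -1.29 and 1.22 over IgG, and the losses lie below 0 in each comparison.

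Libraries that the control fit did not use were also compared: IgG, labelled as a pool of both treatments, was set against the amyloid-β inputs, with the number as a block. Such a pool may hold RNA of the control cultures, and its treatment need not match that of these inputs. There 1429 of 13044 genes were higher (11%) and 1673 lower (12.8%). Of the 447 genes gaining at least 4-fold in control, 302 were tested there, and 219 were higher and 0 lower in IgG than in input. Their median log2 fold change was 1.95, and over the same genes that of the control immunoprecipitation over control input was 2.30. Of the 375 genes losing at least 4-fold in control, 336 were tested there, and 258 were lower and 1 higher. Their median was -2.28, beside -2.35 in control over the same genes. A gene scarce in input passes the filter there mainly through IgG, and a gene scarce in IgG mainly through input. The filter therefore favours these directions, and by how much was not tested. For the 42 losses of at least 16-fold, the median in IgG was -2.66 over the 39 tested, against -5.23 over the same genes in the control immunoprecipitation. Without replicate 4, the counts of IgG against these inputs were 196 higher and 50 lower.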

How the data were processed

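The authors deposited raw read counts, 1 whole number per gene identifier and library. The submitters' processing notes name STAR (2.7.1), R (4.2.2), DESeq2 and HTSeq without saying what each did. Which build, annotation and strand setting they counted with is not given in the sources used here. Genes that overlap, are antisense or have near-identical copies are therefore uncertain. The 5 summary rows held 65.5% to 85.5% of records in the 6 libraries and were left out. Members and lists were chosen with earlier results of these data known. The gene lists could not be used without names.

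edgeR 4.0.16 (R 4.3.3) was run with TMM scaling, its default expression filter, quasi-likelihood F tests over all genes and Benjamini-Hochberg adjustment, with the replicate number as a block. SE is the log2 fold change divided by the square root of F. With 2 residual degrees of freedom the paired fit put 1 dispersion trend on all genes at each level (an infinite prior), so its p-values are too small for genes more variable than that trend, and for single genes the values without the block (4 residual degrees of freedom) are given beside them over input and IgG. Same-numbered control inputs and immunoprecipitations deviated together from their group means (r = 0.58, 0.38 and 0.30 for 2, 3 and 4), and other pairs of these reached at most 0.18. Pairing with IgG was not tested. The series calls replicates biological. P-values refer to the spread between these libraries, which the paired fit over control input takes from the common trend and not from each gene. Replicates of each group differed by more than sampling noise. Differences by pair are of log2 CPM with a prior count of 2. Identifiers are named by fold change, among called genes with the same sign in 3 pairs, no overlap and at least 10 CPM in the higher group. Counting intervals take reads as independent. The paired fit was run on simulated counts in which few genes changed, equally up and down. That run does not bear on the scaling under the large shift seen here. Alternatives comprised voom in limma 3.58.1, DESeq2 1.42.0, other scalings and filters, a 2-fold test, 12 libraries and each pair left out.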

Additional observations from a re-analysis of the deposited data

How the results depend on the processing

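The 4 identifiers kept their direction and their call under all 14 alternatives. Without replicate 3, however, 3 of their folds moved by over 1.5 times, ENSRNOG00000065190 from 17.7 to 28.9, ENSRNOG00000067889 from 832 to 2360 and ENSRNOG00000060430 from 416 to 645. Without replicate 4 the last became 302 and ENSRNOG00000067889 487, and with library sizes alone all 4 shifted upward by the common change of scale. With no replicate block the paired counts of 3977 higher and 3787 lower became 2961 and 2904. Against input, library sizes alone gave 6650 higher and 1323 lower, and a test against a 2-fold change gave 948 and 927, 1875 in all. The total lay between 5722 and 7808 under the others, and from 6236 to 6884 with 1 pair left out. Against IgG the 2753 calls became 223 with no replicate block and 1385 with DESeq2, and ran from 253 to 3272 with 1 number left out. The difference between treatments called 0 genes under each of 9 alternatives. Counts in gene lists were not run because identifiers have no names. In IgG replicate 2, 3 counts correspond to 36.8 CPM, so most scarce genes cannot be compared there.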
